A study of Mus musculus with 16 samples.

Results

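The 9 genes described here carry out and control lipolysis, the release of fatty acids from stored triglyceride. They are the lipases Pnpla2, Lipe and Mgll, the lipase cofactor Abhd5, the lipase inhibitor G0s2, the droplet coat gene Plin1, and the beta-adrenergic and cAMP genes Adrb3, Pde3b and Prkar2b. They were taken by gene symbol from the 23420 genes of the count files, and all 9 were found in each of the 16 libraries' files.

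The RNA came from 8 male C57BL/6 mice, of which 4 are labelled as adipocyte-specific Trib1 knockouts and 4 as wild-type (WT). Each mouse gave a library of adipocytes, freed from subcutaneous fat with collagenase, and a library of liver, so there were 4 libraries in each of 4 groups. These are knockout-labelled adipocytes, WT adipocytes, knockout-labelled livers and WT livers. Mice are named by label and number, here in the order in which values are listed below. These are KO-1137 and KO-1139 (day 76) with KO-1151 and KO-1152 (day 70) for the knockout label, then WT-1135, WT-1136 and WT-1138 (day 76) with WT-1153 (day 70) for the WT label. The day is the postnatal day of sampling, so each age held both labels. The labels name neither the driver of the deletion nor the deleted part of Trib1, a gene for a pseudokinase, and give no treatment.

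Trib1 transcripts did not separate the labels: adipocytes held 1274 ± 146 CPM (counts scaled to library size, with factors from the trimmed mean of M-values within a tissue) in knockout-labelled libraries and 1049 ± 255 CPM in WT libraries (SD, n = 4 each; edgeR adjusted p = 0.241). Livers held 64.9 ± 16.3 CPM in knockout-labelled and 59.8 ± 8.89 CPM in WT libraries (SD, n = 4 each; edgeR adjusted p = 0.875). A gene total also counts exons that a deletion leaves in place, so the groups are called by their labels. Library totals ran from 28560887 to 53716669 counts. Summed over 10 adipocyte markers, adipocyte libraries held 40644 to 64861 CPM, and liver libraries held 44.0 to 94.7 CPM. Summed over 8 hepatocyte markers, adipocyte libraries held 19.8 to 32.5 CPM with the knockout label and 46.0 to 122 CPM with the WT label (1 of 3 tested called lower), and liver libraries held 100141 to 132002 CPM.

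Markers of the other cells of fat tissue differed between the adipocyte groups. Endothelial markers summed to 175 to 391 CPM in knockout-labelled and 630.0 to 1824 CPM in WT adipocyte libraries, and 8 of 8 were called lower. Fibroblast and progenitor markers summed to 684 to 1221 CPM in knockout-labelled and 1504 to 1633 CPM in WT libraries, with 7 of 8 called lower. Mural markers summed to 104 to 170.2 CPM in knockout-labelled and 265 to 397 CPM in WT libraries, with 7 of 7 called lower. These lists thus had less RNA in every knockout-labelled library. Macrophage markers (0 of 6 called) summed to 71.6 to 374 CPM in knockout-labelled and 155 to 332 CPM in WT libraries. Lymphocyte markers (1 of 6 called lower) summed to 4.23 to 16.5 CPM in knockout-labelled and 9.73 to 23.9 CPM in WT libraries. Skeletal muscle markers (1 of 3 called lower) summed to 7.36 to 8.05 CPM in knockout-labelled and 12.5 to 32.9 CPM in WT libraries. The macrophage and lymphocyte ranges overlapped between the groups, and the muscle ranges did not. Adipocyte markers were called higher in 4 of 10 cases, at 57357 to 64861 CPM in knockout-labelled and 40644 to 59372 CPM in WT libraries. Brown adipocyte markers (3 of 5 called higher and 1 lower) summed to 65.1 to 125 CPM in knockout-labelled and 67.0 to 142 CPM in WT libraries. Of these, Ucp1 stood at 56.5 CPM in mouse WT-1135, against 3.57 to 8.74 CPM in the other adipocyte libraries. Fewer cells of a type and less RNA per cell cannot be told apart in such samples.

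As background, fat cells break triglyceride down in steps. PNPLA2 (adipose triglyceride lipase) frees the first fatty acid once ABHD5 activates it, LIPE (hormone-sensitive lipase) acts on the diglyceride, and MGLL on the monoglyceride. Noradrenaline acting on the beta-adrenergic receptor ADRB3 raises cAMP, which releases the catalytic subunits of protein kinase A from regulatory subunits such as PRKAR2B, and the kinase phosphorylates LIPE and the droplet protein PLIN1. PLIN1 holds ABHD5 back until it is phosphorylated, G0S2 inhibits PNPLA2, and PDE3B, which insulin activates, degrades cAMP.

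On GRCm38 with the GENCODE M21 annotation, each member is a protein-coding gene. The lipases are Pnpla2 at chr7:141455198-141460743 on the plus strand, Lipe at chr7:25379527-25398710 on the minus strand and Mgll at chr6:88724412-88828360 on the plus strand. Abhd5 lies at chr9:122351608-122381524 on the plus strand, and G0s2 at chr1:193272161-193273217 on the minus strand. Plin1 lies at chr7:79720218-79732903 and Adrb3 at chr8:27225776-27250616, both on the minus strand. Pde3b lies at chr7:114415281-114539251 on the plus strand, and Prkar2b at chr12:31958476-32061296 on the minus strand. Lipe, Abhd5 and G0s2 overlap genes on the opposite strand (4732471J01Rik, A730085K08Rik and Lamb3), and without the strand setting reads in the overlap cannot be told apart. These partners averaged at most 3.26 CPM in any group. Gene models that overlap Mgll and Adrb3 were not analysed here.

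The bases before the start sites of Abhd5 and Prkar2b, called higher in adipocytes below, and of Pnpla2, the lipase that ABHD5 activates and which did not pass the test, are shown as the stretches where transcription factors could act on these genes. They come from RefSeq on GRCm38.p6, 250 bases each at chr9:122351366-122351615 on the plus strand for Abhd5, chr12:32061278-32061527 on the minus strand for Prkar2b and chr7:141454938-141455187 on the plus strand for Pnpla2, written 5′ to 3′. Capitals mark the motifs found.
Abhd5: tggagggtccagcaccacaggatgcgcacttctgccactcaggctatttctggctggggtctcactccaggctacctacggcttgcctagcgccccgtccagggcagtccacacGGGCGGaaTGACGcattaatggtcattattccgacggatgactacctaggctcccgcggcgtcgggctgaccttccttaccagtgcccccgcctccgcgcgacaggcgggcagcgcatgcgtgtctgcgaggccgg
Prkar2b: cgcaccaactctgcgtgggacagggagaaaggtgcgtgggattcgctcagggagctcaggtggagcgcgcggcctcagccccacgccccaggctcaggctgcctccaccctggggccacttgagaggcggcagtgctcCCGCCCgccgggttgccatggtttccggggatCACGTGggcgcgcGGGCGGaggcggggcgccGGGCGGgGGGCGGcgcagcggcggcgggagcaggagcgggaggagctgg
Pnpla2: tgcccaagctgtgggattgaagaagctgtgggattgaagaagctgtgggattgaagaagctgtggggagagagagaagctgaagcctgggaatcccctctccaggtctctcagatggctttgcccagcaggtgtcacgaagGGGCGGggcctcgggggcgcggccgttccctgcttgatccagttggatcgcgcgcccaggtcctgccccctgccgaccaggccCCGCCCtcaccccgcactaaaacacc

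The motifs searched on both strands were the short core TGACG of the cAMP response element and its full form TGACGTCA, the C/EBP palindrome TTGCGCAA, the PPAR direct repeat, the E-box CACGTG, the common TATA motif TATAAA, a box that reads CCAAT and also the GC box GGGCGG. The full cAMP response element contains the core. Abhd5 held the core, whose first base lies at -128 from the start site, and a GC box at -136. Prkar2b held an E-box at -80 and GC boxes at -112, -67, -49 and -42, and Pnpla2 held GC boxes at -109 and -26. Among 32851 RefSeq windows that reach from 250 bases before to 50 bases after a start, the core was present in 20.8%, the E-box in 7.15% and the GC box in 35.7%. The other motifs were not in the stretches shown. Their shares of the same windows were 1.79% for the full cAMP response element, 0.183% for the C/EBP palindrome, 0.381% for the PPAR repeat, 13.6% for the TATA motif and 37.4% for CCAAT. RefSeq windows were matched for 7 of the 9 members, the others being Adrb3 and Pde3b. Among members whose stretches are not shown, the core also lay in windows of G0s2 (-246) and Mgll (20, after the start). The E-box lay in windows of Lipe (-155) and Mgll (-44), and GC boxes in those of G0s2, Mgll and Lipe. Lipe, Mgll and Prkar2b each had a further RefSeq window at another start. Those of Lipe (chr7:25390063-25390362) and Prkar2b (chr12:32060540-32060839) held none of the motifs searched.

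In adipocytes, the lipase cofactor Abhd5 and the cAMP genes Adrb3 and Prkar2b differed most between the labels. The comparison asks how the labelled knockout bears on the 9 members in the cell type where the labels place it. Abhd5, Adrb3, Prkar2b, Pde3b and Mgll were higher in knockout-labelled adipocytes, by 1.33-fold to 2.07-fold, while Plin1, Pnpla2, Lipe and G0s2 did not pass the test. Thus 5 of 9 members were called higher and 0 lower (edgeR quasi-likelihood test with Benjamini-Hochberg adjusted p under 0.05 over all genes). Of all 13795 genes tested, 18.0% were called higher, 17.1% lower and 35.2% in either direction. The median log2 change was 0.41 over the members and -0.01 over all genes tested. The 10 adipocyte markers, with 4 called higher and 0 lower, had a median log2 change of 0.26 in the same libraries. A rise particular to lipolysis genes was not tested. The values of 6 members did not overlap between the groups, against 33.9% of all genes. DESeq2 called 6 members and 39.2% of all genes it gave an adjusted p, and limma-voom called 5 members and 35.6% of all genes.

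Abhd5, the cofactor that activates PNPLA2, had 714, 693, 755 and 737 CPM in knockout-labelled adipocytes, against 291, 395, 320.4 and 394 CPM in WT adipocytes. Every knockout-labelled library was far above the highest WT library. The log2 change was 1.05 ± 0.12 (SE, n = 4 libraries in each group; edgeR adjusted p = 0.000302).

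Among the lipases, Mgll, which cleaves the last fatty acid from glycerol, had 1933, 1878, 1822 and 1701 CPM in knockout-labelled adipocytes, against 1391, 1484, 1387 and 1252 CPM in WT adipocytes. The groups were apart, and the log2 change was 0.41 ± 0.10 (SE, n = 4 per group; edgeR adjusted p = 0.0119). Pnpla2, the triglyceride lipase, had 4718, 4833, 5126 and 4939 CPM in knockout-labelled adipocytes, against 3535, 4706, 4125 and 4221 CPM in WT adipocytes. Its groups met almost at the highest WT library, and its log2 change of 0.24 ± 0.13 did not pass (edgeR adjusted p = 0.161). Lipe, the diglyceride lipase, had 2042, 2184, 2186 and 1848 CPM in knockout-labelled adipocytes, against 1627, 2112, 1769 and 1728 CPM in WT adipocytes. Its groups overlapped at mouse WT-1136, with a log2 change of 0.19 ± 0.12 (edgeR adjusted p = 0.236).

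G0s2, the inhibitor of PNPLA2, had 118, 90.8, 117 and 101 CPM in knockout-labelled adipocytes, against 94.1, 112, 107 and 128 CPM in WT adipocytes. The groups lay over each other, with a log2 change of -0.04 ± 0.12 (edgeR adjusted p = 0.808). Plin1, the coat protein that guards the droplet, had 1935, 2197, 2122 and 1699 CPM in knockout-labelled adipocytes, against 1534, 1786, 1571 and 1494 CPM in WT adipocytes. Only the lowest knockout-labelled library, of mouse KO-1152, fell below the highest WT library. Its log2 change was 0.32 ± 0.12 with edgeR (adjusted p = 0.0628), and it passed with DESeq2 (adjusted p = 0.0159).

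The receptor gene Adrb3 had 821, 962, 839 and 657 CPM in knockout-labelled adipocytes, against 515, 582, 409 and 384 CPM in WT adipocytes. The groups did not overlap, and the log2 change was 0.79 ± 0.16 (SE, n = 4 per group; edgeR adjusted p = 0.00538). Prkar2b, the regulatory subunit of protein kinase A that is abundant in fat, had 2086, 2125, 2323 and 2118 CPM in knockout-labelled adipocytes, against 883, 1474, 1227 and 1411 CPM in WT adipocytes. Its knockout-labelled libraries were close together and all above WT, at a log2 change of 0.79 ± 0.16 (n = 4 per group, SE; edgeR adjusted p = 0.00505). Pde3b, the phosphodiesterase through which insulin lowers cAMP, had 933, 1087, 1176 and 1104 CPM in knockout-labelled adipocytes, against 577, 844, 816 and 894 CPM in WT adipocytes. The groups were apart by a small gap, and the log2 change was 0.46 ± 0.15 (SE, n = 4 per group; edgeR adjusted p = 0.0352). The Pde3b call was lost without mouse WT-1138 or any of mice KO-1139, KO-1151 and KO-1152, at an adjusted p of up to 0.0895.

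**Figure D1:**
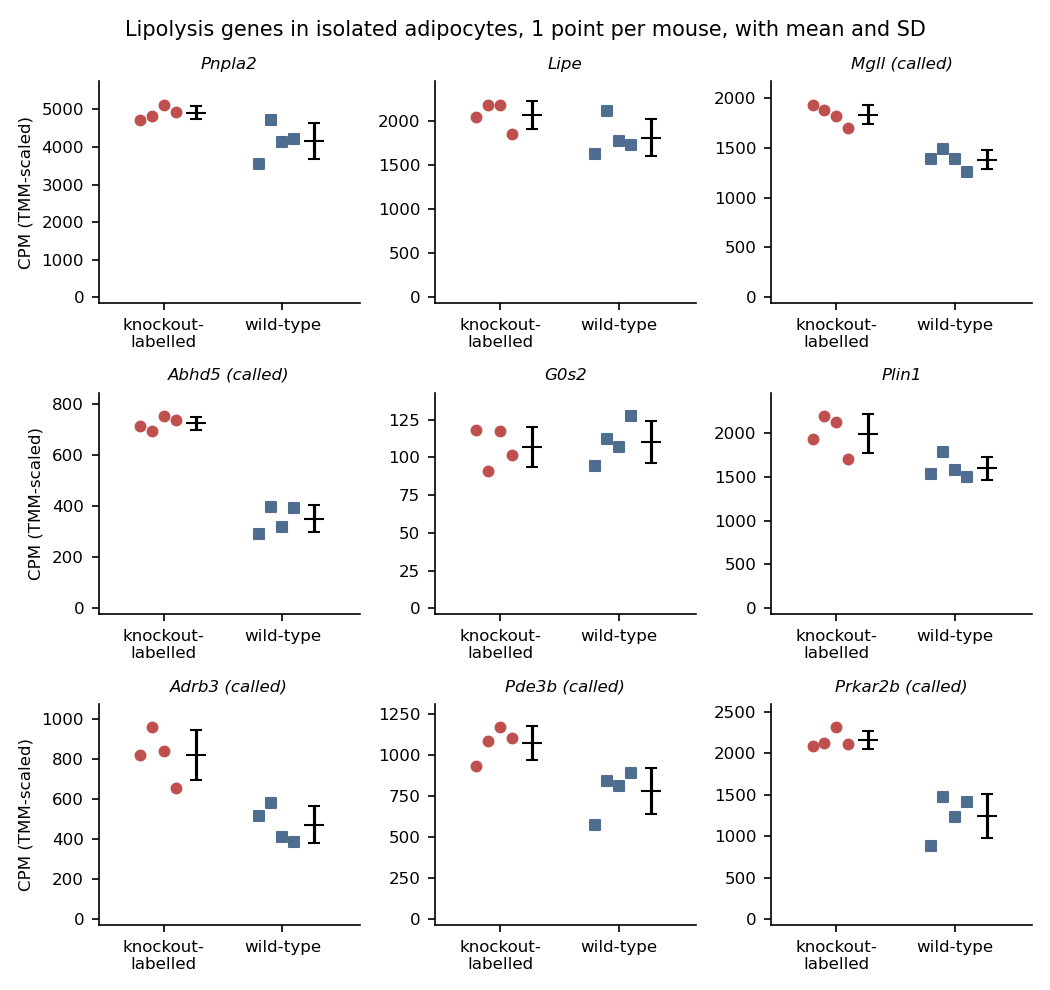
CPM (y axis, scaled within adipocyte libraries) of each lipolysis gene in 4 knockout-labelled and 4 WT adipocyte libraries, 1 point per mouse, with the mean and SD. Abhd5 stands out, at 693 to 755 CPM in knockout-labelled libraries and 291 to 395 CPM in WT libraries, whereas G0s2 overlaps.

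Within each age the 5 called genes kept their direction. At day 70, with 2 knockout-labelled mice and 1 WT mouse, the difference in mean log2 CPM was 0.92 for Abhd5, 0.95 for Adrb3, 0.65 for Prkar2b, 0.49 for Mgll and 0.35 for Pde3b. At day 76, with 2 knockout-labelled and 3 WT mice, it was 1.08 for Abhd5, 0.84 for Adrb3, 0.85 for Prkar2b, 0.42 for Mgll and 0.45 for Pde3b. A fit of the day 76 mice alone called Abhd5 and Adrb3. Of all 14338 genes tested in that fit, 832 were called higher and 898 lower.

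Fewer members were called under another scaling and with a score for stromal markers. Scaling by library totals alone, under which the median over all genes moves by -0.19 on the log2 scale and 24.9% rather than 51.3% of called genes are higher, called Abhd5, Adrb3 and Prkar2b, beside 37.6% of all genes. A score over the 23 endothelial, fibroblast and mural markers, the mean of log2(CPM + 0.05), ran from 3.71 to 4.90 in knockout-labelled and from 5.23 to 6.53 in WT adipocyte libraries, so the score and the labels cannot be told apart in full. With such a score as a covariate, 0 of 9 members were called, and of all 13795 genes tested 443 (3.21%) were, so the members' count lay near that of all genes. The log2 change was then 0.71 for Abhd5 (edgeR adjusted p = 0.0920), 1.11 for Adrb3 (adjusted p = 0.0984), 0.58 for Mgll (adjusted p = 0.159), 0.29 for Prkar2b (adjusted p = 0.6246) and -0.14 for Pde3b (adjusted p = 0.788).

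Ratios of 2 members within a library need no scaling between libraries. Abhd5 counts were 15.1%, 14.3%, 14.7% and 14.9% of Pnpla2 counts in knockout-labelled adipocytes, against 8.23%, 8.40%, 7.77% and 9.35% in WT adipocytes. This balance of cofactor to lipase was thus 1.76-fold higher, with no overlap, at the smallest p that 4 against 4 libraries can give (two-sided exact permutation p = 0.0286, adjusted p = 0.0667 over 7 ratios). Abhd5 over Plin1 was 31.6% to 43.4% in knockout-labelled and 19.0% to 26.4% in WT adipocytes, with the same p and adjusted p. Prkar2b over Prkaca, regulatory over catalytic subunit of protein kinase A, was 698% to 845% in knockout-labelled and 459% to 646% in WT adipocytes, also with the same p and adjusted p. These 3 ratios did not overlap between the groups, and none of the 7 passed after adjustment. With 3 of 7 ratios at the smallest possible p, an adjusted p under 0.05 could not be reached.

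The other ratios overlapped. G0s2 over Pnpla2, inhibitor to lipase, was 1.88% to 2.51% in knockout-labelled and 2.38% to 3.02% in WT adipocytes (exact permutation p = 0.0571, adjusted p = 0.1). By geometric mean, Mgll over Pnpla2 was 37.4% in knockout-labelled and 33.4% in WT adipocytes (exact permutation p = 0.171, adjusted p = 0.24). Pde3b over Adrb3 was 132% in knockout-labelled and 166% in WT adipocytes (exact permutation p = 0.286, adjusted p = 0.333). Lipe over Pnpla2 was 42.0% in knockout-labelled and 43.6% in WT adipocytes (exact permutation p = 0.543, adjusted p = 0.543).

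The surrounding pathway moved in both directions. Of 74 further pathway genes analysed, 70 were tested in adipocytes, of which 18 were called higher and 18 lower, with a median log2 change of 0.09. This count is to be read against the 35.2% of all genes called, and the endothelial markers had a median log2 change of -1.91 in the same libraries. With library totals alone 8 of the 70 were called higher and 22 lower, and with the stromal score as a covariate 4 higher and 1 lower. Of the pathway genes named below, Aadac, Gnai1, Optn and Pde7a were called in all 3 of these fits, and with the score the log2 changes of Adcy4 (0.21), Prkar1b (0.034) and Npr1 (0.0072) turned positive.

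Of 12 other lipases and regulators tested, 3 were higher and 3 lower. Aadac, a microsomal esterase, had 5.37 ± 1.62 CPM in knockout-labelled and 0.0802 ± 0.0829 CPM in WT adipocytes (SD, n = 4 each; edgeR adjusted p = 0.000122), where the WT libraries held 0 to 8 counts. Lipa, the lysosomal acid lipase, fell by 0.54 on the log2 scale (edgeR adjusted p = 0.00166), and Pnpla5, a relative of Pnpla2, was higher by 2.33 at a low level of 2.18 ± 0.702 CPM in knockout-labelled and 0.434 ± 0.186 CPM in WT adipocytes. Of 7 other droplet proteins, 2 were higher and 2 lower. Cidea, a droplet fusion protein, fell to 28.8 ± 5.80 CPM in knockout-labelled adipocytes, against 59.0 ± 9.74 CPM in WT adipocytes (SD, n = 4 each; edgeR adjusted p = 0.00185). The perilipins Plin3 and Plin5 changed in opposite directions, by 0.34 and -0.61 on the log2 scale (edgeR adjusted p = 0.0212 and 0.0220). Neither was called in the day 76 mice. The Plin3 call was also lost without mouse KO-1139, WT-1135 or WT-1138, and the Plin5 call without mouse KO-1152 or WT-1136.

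Of 15 other adrenergic receptors, G proteins and adenylyl cyclases, 2 were higher and 4 lower. Gnai1, an inhibitory G protein subunit, had 851 ± 80.4 CPM in knockout-labelled and 371 ± 54.9 CPM in WT adipocytes (SD, n = 4 each; edgeR adjusted p = 0.000224). The adenylyl cyclases Adcy3 and Adcy4 changed in opposite directions, by 0.37 and -1.69 on the log2 scale. Of 10 genes listed as protein kinase A subunits and anchors, 2 were higher and 2 lower. Optn, which encodes an autophagy receptor rather than a kinase subunit, was higher by 0.86 on the log2 scale, and Prkaca, the main catalytic subunit, by 0.40 (edgeR adjusted p = 0.00840). The regulatory subunit gene Prkar1b fell at a low level, to 0.353 ± 0.202 CPM in knockout-labelled adipocytes, against 1.16 ± 0.493 CPM in WT adipocytes (SD, n = 4 each; log2 change -1.69). The Prkar1b call was lost without mouse KO-1152, WT-1135 or WT-1136, at an edgeR adjusted p of up to 0.0640. Adcy3, Prkaca and Prkar1b were not called in the day 76 mice.

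Of 11 other phosphodiesterases, 2 were higher and 4 lower. Pde7a, which degrades cAMP, was higher at 62.9 ± 14.9 CPM in knockout-labelled adipocytes, against 27.3 ± 1.67 CPM in WT adipocytes (SD, n = 4 each; edgeR adjusted p = 0.000501). Pde1b and Pde2a, which degrade both cAMP and cGMP, fell, with log2 changes of -0.93 and -1.78. Of 8 antilipolytic and natriuretic receptors and the cGMP kinase, 4 were higher and 3 lower. Npr1, the receptor for atrial natriuretic peptide, fell by 1.85, while the fatty acid receptors Ffar4 and Ffar2 were higher by 0.76 and 0.51 on the log2 scale. In the day 76 mice Ffar2 was called and Ffar4 was not. Of 7 genes for export and binding of lipolysis products, 3 were higher and 0 lower. Fabp5, a fatty acid binding protein, had 508 ± 148 CPM in knockout-labelled and 194 ± 24.0 CPM in WT adipocytes (SD, n = 4 each; edgeR adjusted p = 0.000877), and Acsl1 and Slc27a1, which activate and take up fatty acids, were higher by 0.96 and 0.52 on the log2 scale. The Slc27a1 call was lost without mouse KO-1139, KO-1151, WT-1135, WT-1138 or WT-1153, at an edgeR adjusted p of up to 0.0732. In the day 76 mice Fabp5 was called, and Acsl1 and Slc27a1 were not.

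**Figure D2:**
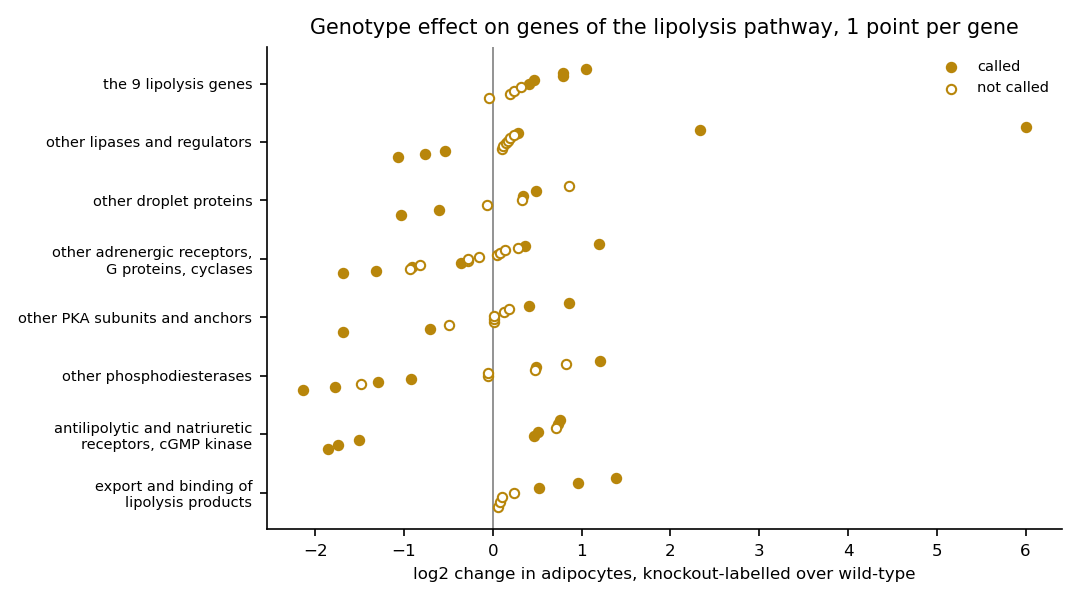
Log2 change in adipocytes, knockout-labelled over WT (x axis), of each tested gene of the pathway, 1 point per gene in rows by list, filled where called. Outside the 9 members, 18 genes were called higher and 18 lower, and each list but that of export and binding, with 3 higher and 0 lower, had calls in both directions.

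In liver, where the labels place no deletion, no member passed the test between knockout-labelled and WT mice. The edgeR test called 0 of 8 members tested, as did DESeq2 and limma-voom, and 2 (G0s2 and Mgll) had an unadjusted p under 0.05. Of all 13288 genes tested, 3 (0.0226%) were called and 1146 had an unadjusted p under 0.05, and DESeq2 called 104. Pnpla2 and Mgll did not overlap between the groups, against 4.66% of all genes. No cell type marker was called in liver.

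G0s2, which in liver as in fat inhibits PNPLA2, had 141, 129, 110.0 and 51.0 CPM in knockout-labelled livers, against 20.4, 21.9, 57.0 and 55.1 CPM in WT livers. The knockout-labelled liver of mouse KO-1152 lay below the 2 higher WT values, and the log2 change was 1.47 ± 0.39 (SE, n = 4 per group; edgeR adjusted p = 0.369). The difference in mean log2 CPM was 0.44 among the day 70 mice (2 knockout-labelled, 1 WT) and 2.19 among the day 76 mice (2 knockout-labelled, 3 WT). Mgll had 172, 159, 181 and 160.2 CPM in knockout-labelled livers, against 130.1, 102, 109 and 154 CPM in WT livers. Every knockout-labelled value was above every WT value, with a log2 change of 0.44 ± 0.12 (edgeR adjusted p = 0.407). Pnpla2 had 152, 160.0, 155 and 155 CPM in knockout-labelled livers, against 143, 146, 144 and 134 CPM in WT livers. This narrow gap gave a log2 change of 0.13 ± 0.07 (edgeR adjusted p = 0.639).

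Abhd5 had 51.8, 26.9, 37.4 and 28.8 CPM in knockout-labelled livers, against 31.2, 28.1, 26.7 and 26.0 CPM in WT livers. Mouse KO-1137 gave the highest value and the groups overlapped (log2 change 0.37 ± 0.18; edgeR adjusted p = 0.609). The ranges of Lipe were 16.0 to 19.3 CPM in knockout-labelled and 13.7 to 17.7 CPM in WT livers, and its log2 change was 0.10 ± 0.11 (edgeR adjusted p = 0.824). Pde3b ran from 63.8 to 75.2 CPM in knockout-labelled and from 61.5 to 91.9 CPM in WT livers, with a log2 change of -0.20 ± 0.12 (edgeR adjusted p = 0.671). Adrb3 overlapped as well, at 7.15 to 15.3 CPM in knockout-labelled and 9.49 to 19.6 CPM in WT livers (log2 change -0.13 ± 0.26; edgeR adjusted p = 0.913).

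Plin1 was close to the limit of detection in liver, and Prkar2b was low but above it, at 12 to 46 counts. Plin1 had 2, 0, 6 and 0 counts in knockout-labelled livers, against 0, 0, 30 and 2 counts in WT livers, and it did not pass the filter on low counts. A count of 0 would allow up to 3 counts, 0.0613 to 0.105 CPM by library total, if counts were independent. Low counts here were mostly even, as all 8 counts of Plin1 in liver were, so this limit may be too low. Prkar2b had 14, 20, 30 and 22 counts in knockout-labelled livers, against 12, 18, 46 and 24 counts in WT livers. The WT liver of mouse WT-1138 was highest for both genes and also held 90 counts of the adipocyte hormone gene Adipoq, against 0 to 14 counts in knockout-labelled and 2 to 10 counts in the other WT livers. The log2 change of Prkar2b was -0.41 ± 0.39 (edgeR adjusted p = 0.789) with this liver and 0.09 without it.

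**Figure D3:**
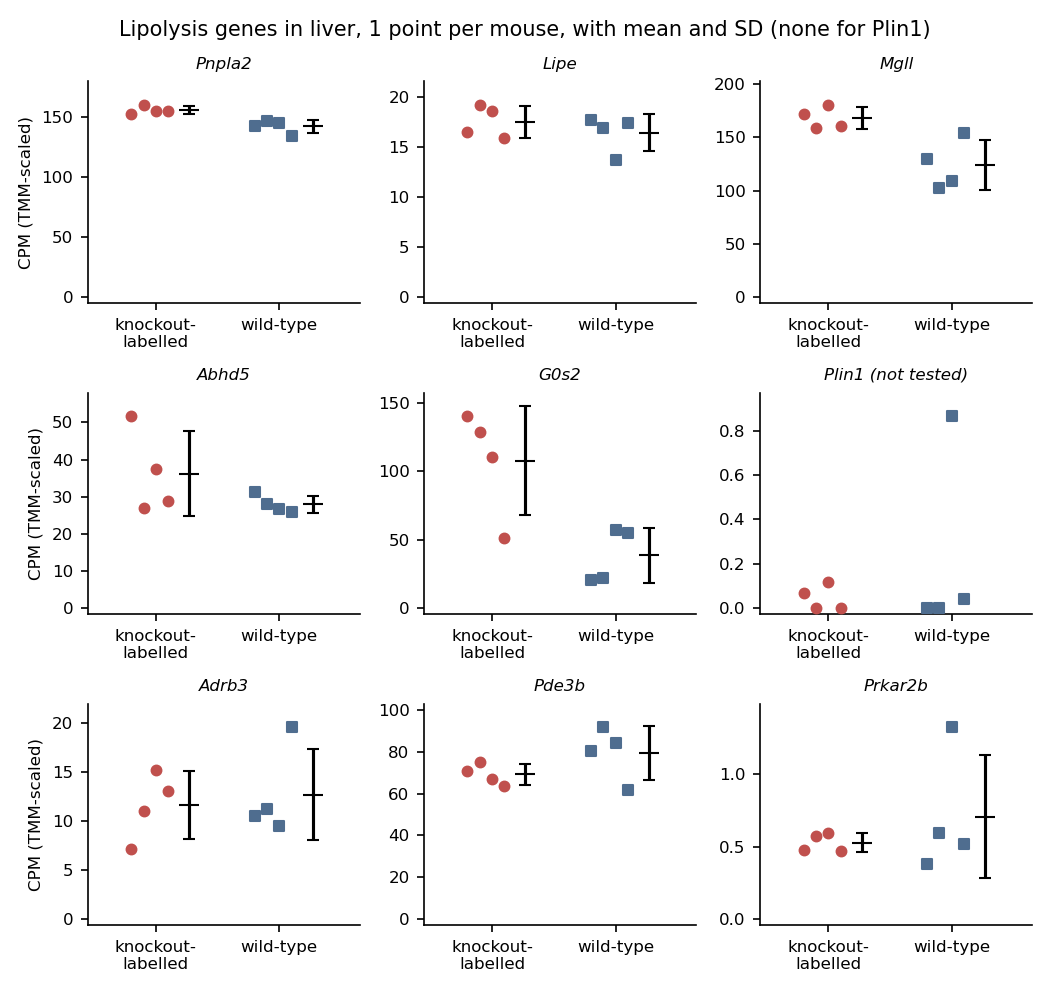
CPM (y axis, scaled within liver libraries) of each lipolysis gene in 4 knockout-labelled and 4 WT livers, 1 point per mouse, with the mean and SD except for Plin1. G0s2 runs from 51.0 to 141 CPM in knockout-labelled and from 20.4 to 57.0 CPM in WT livers, and 1 WT liver stands apart for Plin1 and Prkar2b.

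Within-library ratios in liver, 6 in all, overlapped between the groups. G0s2 over Pnpla2 had a geometric mean of 64.6% in knockout-labelled and 24.3% in WT livers (exact permutation p = 0.0857, adjusted p = 0.429), and Mgll over Pnpla2 was 108% in knockout-labelled and 86.3% in WT livers (exact permutation p = 0.143, adjusted p = 0.429). The other 4 ratios had exact permutation p of 0.543 or above.

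Of the further pathway genes, 0 of 62 tested were called in liver. The smallest adjusted p were those of Ddhd2, an intracellular phospholipase and lipase, at 33.2 ± 2.95 CPM in knockout-labelled and 20.8 ± 2.15 CPM in WT livers (SD, n = 4 each; edgeR adjusted p = 0.0989), and of Adora1, the antilipolytic adenosine receptor, at 11.6 ± 2.52 CPM in knockout-labelled and 25.9 ± 5.17 CPM in WT livers (SD, n = 4 each; edgeR adjusted p = 0.115). By list, the other named genes had log2 changes of -0.24 (Abhd12), 0.67 (Plin2), 0.50 (Cidec), -0.66 (Adra1a), -0.61 (Adcy9), 0.87 (Pkia), -0.18 (Prkaca), -0.83 (Pde4b), 0.28 (Pde4a), 0.70 (Npr3), -1.29 (Cd36) and 0.52 (Acsl1). All of these 12 had edgeR adjusted p of 0.251 or above.

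Whether the labels acted differently in fat cells and liver was tested as a difference of the 2 tissues' changes in a fit of all 16 libraries. Abhd5, Pde3b and Prkar2b had a larger log2 change in adipocytes than in liver, and G0s2 a smaller one. The difference, adipocytes minus liver, was 0.70 ± 0.23 for Abhd5 (edgeR adjusted p = 0.0443), 0.68 ± 0.20 for Pde3b (adjusted p = 0.0273) and 1.22 ± 0.39 for Prkar2b (adjusted p = 0.0382). For G0s2, whose transcripts were level in adipocytes and 1.47 higher on the log2 scale in liver without passing the test there, it was -1.49 ± 0.45 (edgeR adjusted p = 0.0282). Thus 3 members were called higher and 1 lower, against 10.4% higher, 8.73% lower and 19.1% in either direction among all 14898 genes tested.

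Each mouse supplied both of its tissues. With the mouse as a block, Abhd5 (0.76; edgeR adjusted p = 0.0458) and G0s2 (-1.56; adjusted p = 0.0215) were called, while Pde3b (0.69; adjusted p = 0.0602) and Prkar2b (1.18; adjusted p = 0.0544) were not. Leaving out 1 mouse at a time gave 0 called members without KO-1139 or KO-1151, 1 without WT-1135, WT-1138 or KO-1152, 2 without KO-1137, 3 without WT-1136 and 4 without WT-1153. Scaling by library totals, which shifts the median of all genes by -0.24, left G0s2 as the called member. Of all 14898 genes tested, 1171 were called higher and 1074 lower with the block, and 683 higher and 2242 lower with library totals. With 1 mouse left out, 1758 to 2988 genes were called.

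The remaining differences did not pass. Adrb3 differed by 0.94 ± 0.34 (edgeR adjusted p = 0.0630) and Plin1 by 2.47 ± 1.20 (adjusted p = 0.160), and the Plin1 difference was -0.98 without mouse WT-1138, whose liver held most Plin1 counts. Pnpla2 differed by 0.13 (adjusted p = 0.633) and Lipe by 0.12 (adjusted p = 0.686). Mgll changed by 0.41 in adipocytes and 0.44 in liver in the separate fits, and its difference in the joint fit was -0.00064 (adjusted p = 0.9999).

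**Figure D4:**
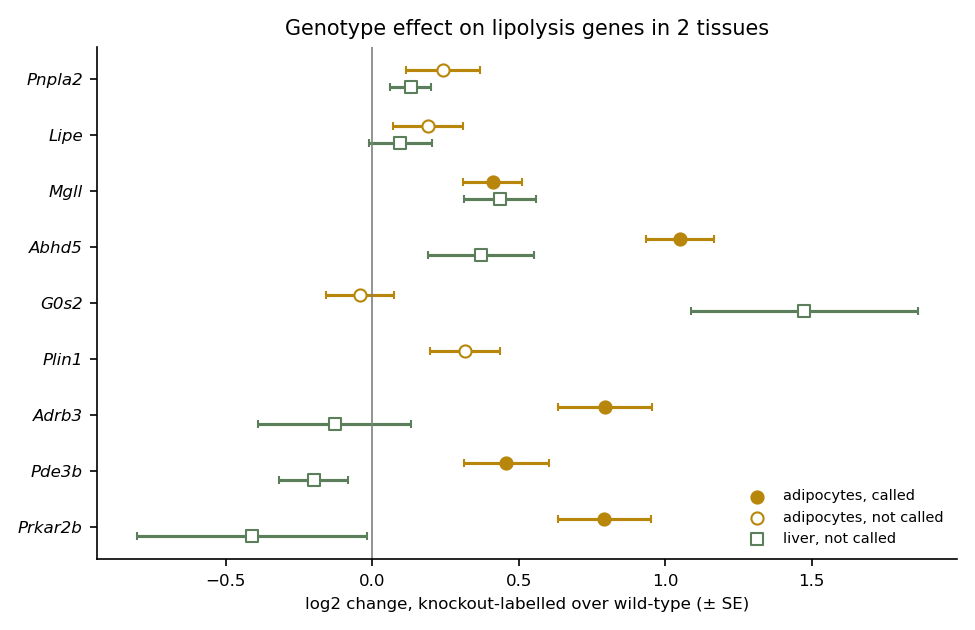
Log2 change with its SE, knockout-labelled over WT (x axis), of each lipolysis gene in adipocytes and in liver, filled where called. Abhd5 lies at 1.05 in adipocytes and 0.37 in liver, G0s2 at -0.04 in adipocytes and 1.47 in liver, and Mgll at nearly the same place in both tissues.

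The members were higher in adipocytes than in liver to very different degrees. Between adipocytes and livers of WT mice, 9 of 9 members were called higher in adipocytes, against 40.5% of all 14366 genes tested called higher and 77.6% called in either direction. The values of 9 of 9 members did not overlap between the tissues, as was so for 73.4% of all genes. Scaled over the 8 WT libraries, Prkar2b averaged 1067 ± 227 CPM in adipocytes and 0.876 ± 0.521 CPM in livers (SD, n = 4 each; log2 change 10.24 ± 0.39, SE; edgeR adjusted p = 1.59e-09). Plin1 averaged 1363 ± 112 CPM in adipocytes and 0.281 ± 0.527 CPM in livers, with a log2 change of 12.23 ± 0.76 that became 15.68 without mouse WT-1138. Of the members, these 2 were nearest to the limit of detection in liver.

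Lipe was 75.4-fold higher in adipocytes, Adrb3 25.4-fold and Pnpla2 20.1-fold, and the folds were 8.60 for Abhd5, 7.63 for Mgll and 6.77 for Pde3b (edgeR adjusted p of 1.22e-07 or below for each). G0s2 differed least, at 94.0 ± 11.9 CPM in adipocytes and 48.0 ± 25.1 CPM in livers (SD, n = 4 each; log2 change 0.97 ± 0.32, SE; edgeR adjusted p = 0.0163). Without mouse WT-1136 it did not pass (log2 change 0.77; edgeR adjusted p = 0.0698). Scaling by library totals shifts the median of all genes by 0.65 in this contrast, and the log2 change of G0s2 was then 1.61.

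Per length, the triglyceride lipase led in fat cells. In knockout-labelled adipocytes Pnpla2 had the highest level, at 1624 ± 57.4 CPM per kb of exon, and Prkar2b followed at 592 ± 29.5 CPM per kb, above Plin1 at 428 ± 47.8 CPM per kb. Mgll (361 ± 19.5 CPM per kb) and Lipe (351 ± 27.1 CPM per kb) overlapped with Plin1 and with each other. Adrb3, at 243 ± 37.2 CPM per kb, stood between these and the lowest 3 genes. Those were G0s2 (123 ± 15.3 CPM per kb), Abhd5 (122 ± 4.52 CPM per kb) and Pde3b (118 ± 11.2 CPM per kb), which were not separated by their spread.

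In WT adipocytes Pnpla2 again led, at 1373 ± 159 CPM per kb. Plin1 (343 ± 28.1 CPM per kb), Prkar2b (342 ± 72.7 CPM per kb), Lipe (307 ± 35.8 CPM per kb) and Mgll (272 ± 18.8 CPM per kb) overlapped from neighbour to neighbour. Adrb3 (139.9 ± 27.5 CPM per kb) and G0s2 (126 ± 15.9 CPM per kb) overlapped below them. Pde3b (85.9 ± 15.5 CPM per kb) and Abhd5 (58.8 ± 8.88 CPM per kb) overlapped at the bottom. Abhd5 thus lay below G0s2 in every WT library and among the G0s2 values in knockout-labelled libraries.

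In knockout-labelled livers G0s2 had the highest level per length, at 124 ± 45.7 CPM per kb, above Pnpla2 at 51.4 ± 1.13 CPM per kb and Mgll at 33.0 ± 2.05 CPM per kb. In WT livers Pnpla2 (47.0 ± 1.77 CPM per kb), G0s2 (44.3 ± 23.2 CPM per kb) and Mgll (24.4 ± 4.59 CPM per kb) overlapped from neighbour to neighbour. Below them came Pde3b (7.59 ± 0.538 CPM per kb in knockout-labelled and 8.72 ± 1.42 CPM per kb in WT livers) and Abhd5 (6.08 ± 1.90 CPM per kb in knockout-labelled and 4.70 ± 0.383 CPM per kb in WT livers). Adrb3 and Lipe stayed at 2.12 to 4.52 CPM per kb in knockout-labelled and 2.33 to 5.82 CPM per kb in WT livers, and Prkar2b and Plin1 at or below 0.163 CPM per kb in knockout-labelled and 0.364 CPM per kb in WT livers.

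**Figure D5:**
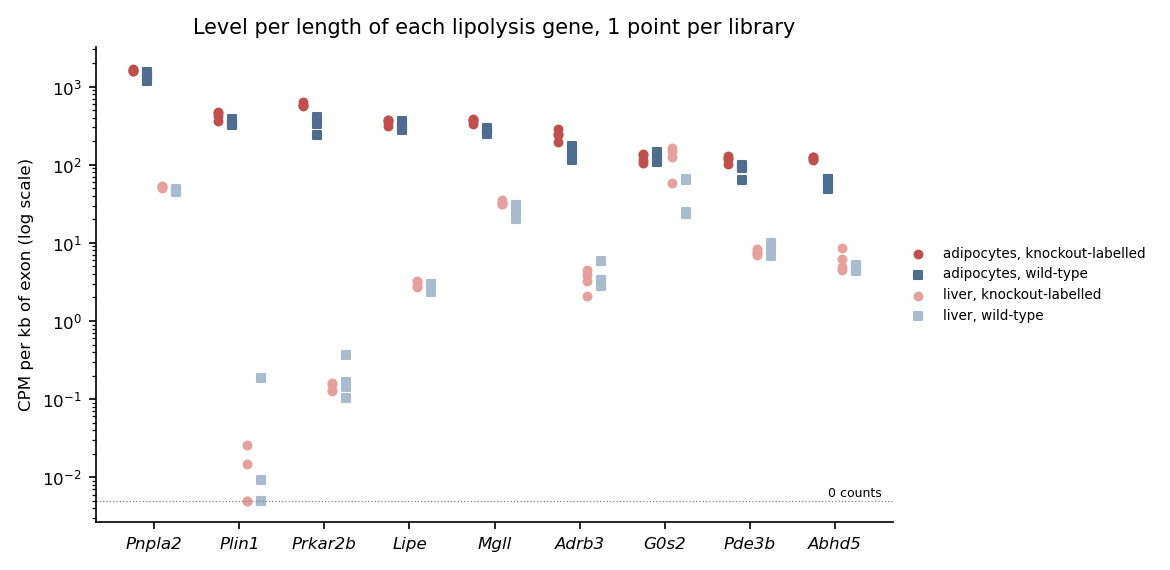
Level per length of each lipolysis gene (y axis, CPM per kb of exon, log scale, scaled within each tissue) in the 16 libraries, 1 point per library. Plin1 and Prkar2b drop furthest between adipocytes and livers, and G0s2 least, and points on the dotted line had 0 counts.

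Among 12634 genes that averaged 1 CPM or more, the gene closest to a member in pattern over the 16 libraries was found by the root mean square difference of centred log2 CPM. Hoxa9 was closest to Lipe (0.14) and 2610019F03Rik to Mgll (0.19). Ahcyl2 was closest to Abhd5 (0.29), Cdsn to Prkar2b (0.31), Anxa2 to Adrb3 (0.32), Zfp9 to G0s2 (0.38) and Retn to Plin1 (0.77). The likeness includes the step between fat cells and liver, and it is a description over these 16 libraries.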

How the data were processed

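Polyadenylated RNA was sequenced from 16 libraries. The deposited files hold whole-number counts per gene symbol, not normalized. The submitters' processing notes name the build mm10 and the tools STAR 2.5.2b, featureCounts 1.5.0 and bcl2fastq 2.17. For annotation, strand setting and multi-mapping, the sources used here give nothing. Of count values from 1 to 20, 77.9% were even, so low counts are not independent molecules. Within a group, the chi-square per degree of freedom between any 2 libraries was 32.1 or more, so all were kept as replicates.

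Counts were scaled (TMM), filtered (filterByExpr by group) and tested with edgeR 4.0.16 in R 4.3.3, two-sided, over all genes, with a Benjamini-Hochberg threshold of 0.05. An SE is the log2 change divided by the square root of F. Tissues were fitted separately, except for the difference between tissues and the WT tissue contrast. DESeq2 1.42.0, limma-voom (3.58.1), other scalings and filters, ages, a mouse block, a stromal score (mean log2 CPM) and single left-out libraries were alternatives. Level per length used union exons of GENCODE M21. Mouse numbers pair the libraries by the labels, and deviations of a mouse's 2 libraries correlated at -0.101 to 0.162 (Pearson r across genes).

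The members, pathway and marker lists were chosen with earlier results of these data known. All members were named, with the 3 pathway genes of smallest p per list in adipocytes and 2 in liver. Pnpla4, Hcar1, Hcar2 and Adgre1 were not analysed here. The genes closest in pattern to Pnpla2 and Pde3b are not reported here. The replicates are separate mice.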

Additional observations from a re-analysis of the deposited data

Results flagged for a closer look

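In groups of 4 libraries, 4 of 62 groups examined held a value whose gap to its nearest neighbour was large against the group's range. This share is near the 1 in 20 that chance gives. The flagged values were Plin1 in the WT liver of mouse WT-1138 (0.868 CPM), Adrb3 in the WT liver of mouse WT-1153 (19.6 CPM), Prkar2b in the knockout-labelled adipocytes of mouse KO-1151 (2323 CPM) and the ratio of Prkar2b to Prkaca in the WT adipocytes of mouse WT-1135 (459%). The liver of mouse WT-1138 also held 30 counts of Plin1, 46 of Prkar2b and 90 of Adipoq.

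The genotype effect differed between adipocytes and liver for 4 members by the test of the difference itself (edgeR adjusted p under 0.05). The log2 difference, adipocytes minus liver, was 0.70 for Abhd5, 0.68 for Pde3b, 1.22 for Prkar2b and -1.49 for G0s2. With the mouse as a block, Abhd5 and G0s2 stayed past the threshold, and Pde3b and Prkar2b did not.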

How the results depend on the processing

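In adipocytes the 5 called members became 3 with library totals alone, 2 in the day 76 mice and 0 with the stromal score, 4 to 6 with 1 mouse left out, and 4 to 6 in the other settings. The 18 higher and 18 lower pathway genes became 7 and 9 in the day 76 mice. The 4849 called genes became 5192 with library totals alone, 1730 in the day 76 mice and 443 with the stromal score. They became 5405 with DESeq2 and 3553 to 5296 with 1 mouse left out. In liver 0 members were called in every setting run, and the 3 called genes became 104 with DESeq2, 5 with no filter, 0 in the day 76 mice, 1 with the stromal score and 1 to 3 with 1 mouse left out. For the difference between tissues, the 4 called members became 1 with library totals alone, 0 in the day 76 mice, 2 with the mouse as a replicate block and 0 to 4 with 1 mouse left out. The 2845 called genes there became 666 in the day 76 mice and 1758 to 2988 with 1 mouse left out. Between tissues of WT mice 9 members were called in every setting that kept all 4 mice and in the day 76 mice, and 8 to 9 with 1 mouse left out. The 11154 genes called there became 10214 to 11909 in the former settings and 10271 to 10835 with 1 mouse left out. The block changed no member's call there.

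Of the members' log2 changes whose sign turned, that of Pde3b in adipocytes was a called one, and none was called after turning. In adipocytes these were Pnpla2 (-0.0039) and Pde3b (-0.14) with the stromal score, Lipe (-0.00095) with library totals, and G0s2 (0.0033 in the day 76 mice, and -0.13 to 0.034 with 1 mouse left out). In liver they were Adrb3 (-0.29 to 0.17) and Prkar2b (-0.61 to 0.086) with 1 mouse left out. For the difference between tissues they were Pnpla2 (-0.10) and Lipe (-0.11) with library totals, Mgll (0.0146 with DESeq2, 0.0144 with relative log expression scaling, 0.0079 with no filter, and -0.17 to 0.13 with 1 mouse left out) and Plin1 (-0.98 to 3.77 with 1 mouse left out). With 1 mouse left out, the log2 difference of a ratio turned for Lipe over Pnpla2 in adipocytes (-0.089 to 0.0022). In liver it turned for Abhd5 over Pnpla2 (-0.0048 to 0.34) and Lipe over Pnpla2 (-0.13 to 0.023). It also turned there for Pde3b over Adrb3 (-0.42 to 0.096) and Prkar2b over Prkaca (-0.34 to 0.28). The causes were not tested. Plin1 and Prkar2b had few counts in liver, and of the single mice left out, WT-1138 moved their changes most.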
